A study of Mus musculus with 6 samples.

Results

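miR-199 and miR-214 are a small group of miRNAs whose hairpins lie on the opposite strand of the dynamin genes. The 4 hairpin rows Mir199a-1, Mir199a-2, Mir199b and Mir214, of 1973 rows in the count table, were taken by their GENCODE M21 gene names, and all 4 were found and passed the filter on low counts. They had been picked as a group from earlier results of the same libraries, for high counts and for little change under ceramide (Cer), so their abundance and their Cer comparison are a description. Where the text says how many of them passed a threshold set for all rows, this is not a test of them and supports nothing. Little change held for the 3 miR-199 rows. It did not hold for Mir214, which was lower in each Cer library than in each control library, as were 105 of the 418 rows tested (25.1%). In the fit used here Mir214 did not pass both thresholds set for all rows.

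Small RNA was sequenced from exosomes of HN9.10e cells, an immortalized wild-type mouse hippocampal neuron line of embryonic origin. Exosomes were collected after 48 h from the medium of untreated cells (control, 3 libraries) or of cells that received Cer at 100 nmol/L (3 libraries); the study's reagents list a short-chain ceramide, and a carrier for the control was not named. Both groups were grown with fetal bovine serum, and whether its own vesicles had been removed was not given in the sources used here. Total counts were between 800810 and 2760015 per library. The library names carry lane 1 for replicate 1 of both groups, and lane 4 (control) or lane 2 (Cer) for replicates 2 and 3. Whether the same lane number means the same sequencing run was not given in the sources used here. The study calls the replicates biological, while neither it nor the labels say whether each came from a culture of its own, so part of the spread between libraries may be technical. Counts are relative, so fewer vesicles with an miRNA and less of it per vesicle cannot be told apart.

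A miRNA hairpin is cut by Drosha and Dicer into a duplex, and either arm (5p or 3p) can be loaded on an Argonaute protein, which it guides to target mRNAs mainly through its seed, bases 2 to 8. Mir199a-2 and Mir214 are processed from one long noncoding transcript, Dnm3os, which is needed for normal skeletal growth in mice and is induced by the mesenchymal factor Twist1. miR-199 and miR-214 are best known from mesenchyme, fibroblasts and muscle. miR-214 represses the Polycomb methyltransferase Ezh2, and miR-199a-3p represses mTOR and the receptor Met.

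The mature sequences are shown first because they decide what a row can count. They come from RefSeq (GRCm38.p6), in which all 4 hairpins matched by symbol, and the seed is in capitals:

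miR-199a-5p: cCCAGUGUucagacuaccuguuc

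miR-199a-3p and miR-199b-3p: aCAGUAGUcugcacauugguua

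miR-214-5p: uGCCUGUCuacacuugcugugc

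miR-214-3p: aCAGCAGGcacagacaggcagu

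The 3p arm of miR-199 was the same 22 bases in Mir199a-1, Mir199a-2 and Mir199b, and the 5p arm was the same 23 bases in Mir199a-1 and Mir199a-2. The RefSeq table named no 5p arm for Mir199b. The stretch of its hairpin that best matched miR-199a-5p, at chr2:32318485-32318507 on the plus strand, was identical at 22 of 23 bases and differed by C10U, counted from 1 at the 5′ end of miR-199a-5p and outside the seed. The differing base is in capitals:

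miR-199a-5p: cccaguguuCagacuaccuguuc

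Mir199b hairpin: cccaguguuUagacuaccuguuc

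The 3p arms of miR-199 and miR-214 began alike, with 5 of the 7 seed positions identical, and differed in the seed by U5C and U8G. Over the 22 bases of miR-199a-3p, 8 positions matched miR-214-3p. The whole hairpins follow, with the mature arms (and, for Mir199b, the 5p stretch above) in capitals, to show how much of each row is shared:

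Mir199a-1: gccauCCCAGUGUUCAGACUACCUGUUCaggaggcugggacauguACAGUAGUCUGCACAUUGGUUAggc

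Mir199a-2: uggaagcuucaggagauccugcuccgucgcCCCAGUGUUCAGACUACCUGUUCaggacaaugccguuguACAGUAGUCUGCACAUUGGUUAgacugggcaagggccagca

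Mir199b: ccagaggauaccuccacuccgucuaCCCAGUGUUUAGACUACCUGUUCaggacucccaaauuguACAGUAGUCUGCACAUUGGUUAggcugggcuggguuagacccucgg

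Mir214: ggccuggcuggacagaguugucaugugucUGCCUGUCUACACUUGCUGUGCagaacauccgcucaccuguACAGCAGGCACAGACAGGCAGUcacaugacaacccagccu

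The longest stretch shared by 2 miR-199 hairpins was 27 or 28 bases, enough to hold a whole mature arm, and no miR-199 hairpin shared more than 7 bases in a row with Mir214. The seed CAGUAGU occurred in no other mature miRNA of the table, nor did CCAGUGU of miR-199a-5p or GCCUGUC of miR-214-5p. The seed CAGCAGG of miR-214-3p was shared with miR-761 alone:

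miR-761: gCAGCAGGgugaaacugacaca

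The Mir761 row had a count of 0 in each of the 6 libraries, so miR-214 was the one miRNA with this seed that was counted here.

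The hairpins lie on 3 chromosomes of GRCm38. Mir199a-1 (ENSMUSG00000065547) is at chr9:21496495-21496564 on the minus strand, in an intron of Dnm2, which runs on the plus strand and encodes the widely expressed dynamin 2. Mir199b (ENSMUSG00000092807) is at chr2:32318460-32318569 on the plus strand, in an intron of the minus-strand gene Dnm1, which encodes the neuronal dynamin 1. Mir199a-2 (ENSMUSG00000070126) at chr1:162217814-162217923 and Mir214 (ENSMUSG00000065516) at chr1:162223368-162223477 are both on the plus strand, in an intron of minus-strand Dnm3 and over exons of Dnm3os (5 of its 6 annotated transcripts for Mir199a-2 and 3 of 6 for Mir214). The hairpins of this pair start 5554 bases apart. No other row of the table overlapped a member. The other row inside the dynamin genes, Gm23363 in Dnm1, held 2 to 8 counts per library.

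The 3 miR-199 rows were among the most abundant of the exosomal miRNAs. Mean levels below are in normalized CPM, counts scaled by TMM to a common library size. A sequenced read here covers a mature arm rather than the hairpin, so levels are given per row, and per 100 hairpin bases once. Mir199a-2 ranked 11th of the 418 rows tested by mean level, Mir199a-1 12th, Mir199b 14th and Mir214 31st. Together the 4 rows held 7.39 ± 0.505% of all counts in control and 6.61 ± 0.488% in Cer exosomes (SD, n = 3 each). With the miR-199 rows counted once, at their mean, these shares were 3.17 ± 0.274% and 2.71 ± 0.156% (SD, n = 3 each). Per 100 hairpin bases the means were 31538 CPM for Mir199a-1, 20203 CPM for Mir199a-2, 16792 CPM for Mir199b and 6562 CPM for Mir214. Mir199a-1 is annotated at 70 bases and the others at 110, and its count was nearly that of Mir199a-2.

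Mir199a-1 had 23650, 22456 and 20993 CPM in control replicates 1, 2 and 3. In Cer replicates 1, 2 and 3 it had 24229, 21473 and 19657 CPM. Replicate 1 was the highest and replicate 3 the lowest library in both groups, and the groups overlapped. The means were 22366 ± 1331 CPM in control and 21786 ± 2302 CPM in Cer exosomes (SD, n = 3 each).

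Mir199a-2, the paralog in Dnm3os, had 23756, 22573 and 21139 CPM in control replicates 1, 2 and 3, and 24347, 21646 and 19880 CPM in the Cer replicates. Its libraries stood in the same order as for Mir199a-1, and its groups overlapped. The means were 22489 ± 1310 CPM and 21958 ± 2250 CPM (SD, n = 3 each).

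Mir199b had 20005, 19022 and 17405 CPM in control replicates 1, 2 and 3, and 20065, 17958 and 16375 CPM in the Cer replicates. Again replicate 1 was the highest and replicate 3 the lowest in both groups, with overlapping groups. The means were 18810 ± 1313 CPM and 18133 ± 1851 CPM (SD, n = 3 each).

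Mir214 had 9740, 7642 and 7498 CPM in control replicates 1, 2 and 3, and 5857, 6013 and 6559 CPM in the Cer replicates. Each Cer library was below each control library, as for 105 of the 418 rows (25.1%), with Cer replicate 3 closest to control replicate 3. Control replicate 1 stood above the other control libraries. The means were 8293 ± 1255 CPM and 6143 ± 368 CPM (SD, n = 3 each), and the lowest count behind them was 4508, in Cer replicate 1.

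**Figure D1:**
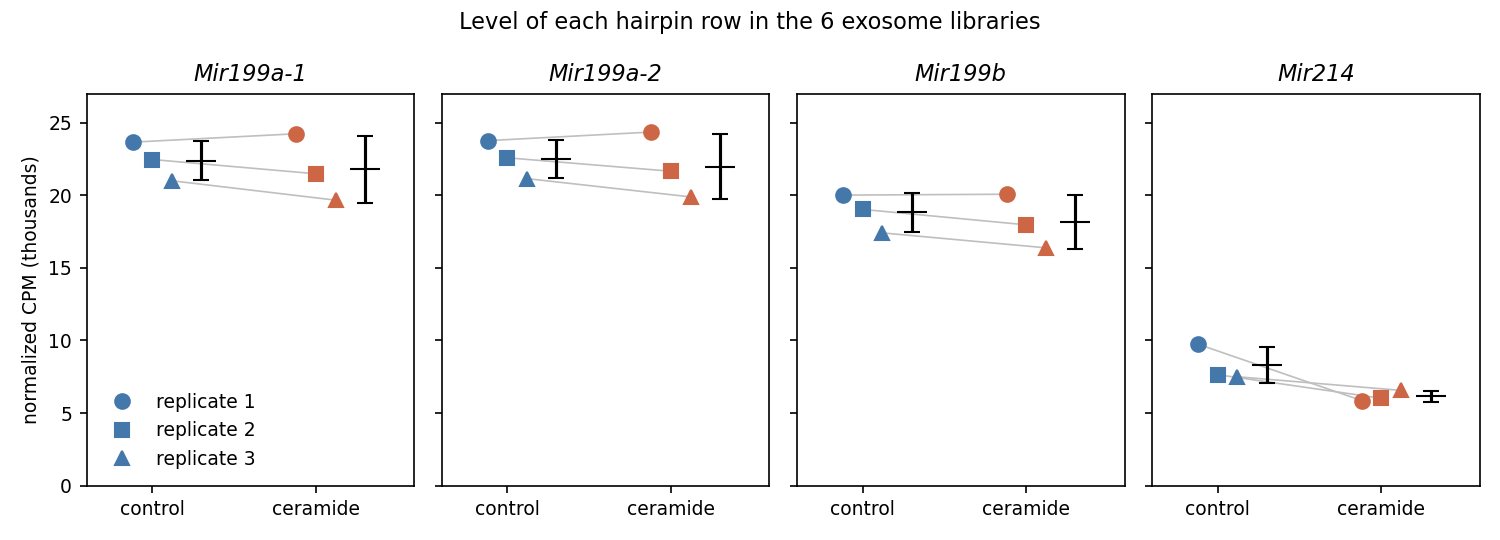
Normalized CPM (axis in units of 1000 CPM, linear from 0) of the 4 hairpin rows in control (blue) and ceramide (orange) exosomes. Each point is 1 library, symbols and grey lines mark the replicate number, and black bars give the mean and SD of 3 libraries. The miR-199 rows overlap between groups, and the Mir214 points of ceramide (5857 to 6559 CPM) lie below those of control (7498 to 9740 CPM).

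In the order of mean levels over all 6 libraries, the range of each row overlapped that of its neighbours, in part because some neighbours differed between groups. Mirlet7c-1, a let-7 hairpin just above Mir199a-2, was at 19327 ± 1004 CPM in control and 30364 ± 2644 CPM in Cer (SD, n = 3 each), so its mean was below that of Mir199a-2 in control and above it in Cer. Mir25, which shares its seed with miR-92, stood between Mir199a-1 and Mir199b and was at 24578 ± 841 CPM in control and 15968 ± 906 CPM in Cer (SD, n = 3 each), with a mean above both in control and below both in Cer. Mir335, just under Mir199b, was at 12790 ± 1243 and 16857 ± 1376 CPM (SD, n = 3 each), and its range reached 18107 CPM, above the lowest Mir199b library. Around Mir214, Mir143 (6398 to 9199 CPM) and Mir125a (4138 to 8840 CPM) overlapped its range of 5857 to 9740 CPM. Among the members, the ranges of Mir199a-1 and Mir199b overlapped, and Mir214 lay below the 3 miR-199 rows in every library.

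Ratios between rows of the same library do not depend on scaling, and they show how the rows are tied together. Mir199a-2 held 106, 165 and 199 more counts than Mir199a-1 in control replicates 1, 2 and 3, and 91, 458 and 524 more in the Cer replicates. This was 0.447% to 1.13% of the Mir199a-1 count, far less than the coefficient of variation of Mir199a-1 between control libraries (5.95%). The hairpins share both mature arms. STAR's gene counting, which the study names, takes reads that align to 1 place only, and reads of these arms align to both hairpins, so the near-equal counts do not follow from that step as named. How such reads were assigned was not given in the sources used here, and where a read was counted on more than 1 row the levels and ranks of the miR-199 rows count it more than once. These rows are therefore not read here as separate measurements, and how much each locus contributed cannot be told apart.

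The Mir199b count was 84.6%, 84.7% and 82.9% of the Mir199a-1 count in control replicates 1, 2 and 3. In Cer replicates 1, 2 and 3 it was 82.8%, 83.6% and 83.3%. The mean was 84.1 ± 1.01% in control and 83.2 ± 0.413% in Cer (SD, n = 3 each), with overlapping groups. Reads of the shared 3p arm cannot be told apart between these loci. A read counted on Mir199a-1 and also on Mir199b can be at most the whole Mir199b count, so at least 15.3% to 17.2% of the Mir199a-1 count, 3205 to 9280 counts per library, came from reads that were not counted on Mir199b.

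The ratio of Mir214 to Mir199a-2, the pair in the Dnm3os transcript, varied much more. It was 41.0%, 33.9% and 35.5% in control replicates 1, 2 and 3. In Cer replicates 1, 2 and 3 it was 24.1%, 27.8% and 33.0%. The groups did not overlap, but the highest Cer library, replicate 3, came within 1 percentage point of the lowest control library, replicate 2. The mean ratio was 36.8 ± 3.75% in control and 28.3 ± 4.49% in Cer (SD, n = 3 each). On the log2 scale the ratio fell by 0.39 from control to Cer. The difference was given no test, since the choice of these rows had used the same libraries.

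**Figure D2:**
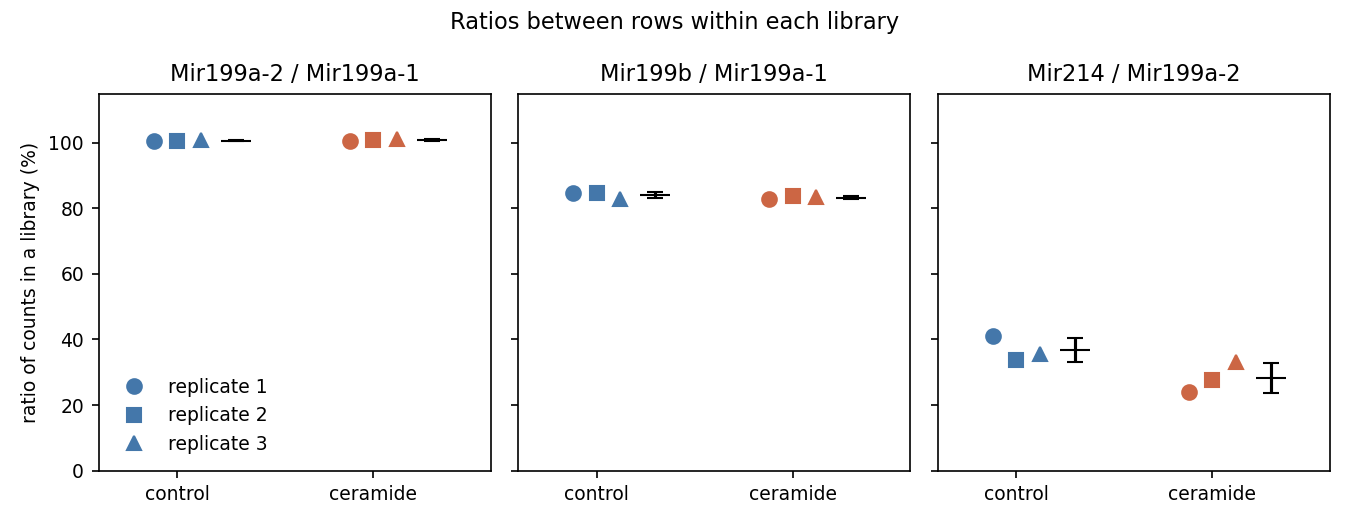
Count of one row as a percentage of another in the same library (linear axis from 0), for control (blue) and ceramide (orange) libraries. Points are libraries, symbols mark the replicate number, and black bars give the mean and SD of 3. Mir199a-2 is at 100 to 101% of Mir199a-1 and Mir199b at 82.8 to 84.7% in every library, while Mir214 ranges from 24.1 to 41.0% of Mir199a-2.

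The comparison of Cer with control asks which miRNAs the exosomes carry at other levels after Cer. It was fitted with edgeR's quasi-likelihood method on all 418 rows, and a row was called where its p, adjusted by Benjamini-Hochberg, did not exceed 0.05 and its log2 fold change was 0.6 or more in either direction. The log2 fold change (Cer minus control) was -0.04 for Mir199a-1 (standard error 0.10), -0.03 for Mir199a-2 (standard error 0.09) and -0.05 for Mir199b (standard error 0.10). For Mir214 it was -0.43 (standard error 0.12), a level in Cer of 0.741 times that in control. None of the 4 rows was called, against 48 of the 418 rows (11.5%). At an adjusted p of at most 0.05 with no fold threshold, 83 rows passed (19.9%), 1 of the 4 among them, Mir214. This pass depended on the processing: Mir214 passed in 7 of 16 alternative fits, and not with DESeq2, the method of the study. Cer libraries that were all below the control libraries were found for 105 rows (25.1%), again with 1 member, Mir214. Because change in these libraries was a reason for the choice of the rows, nothing is read from these member counts.

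Set against the other rows, the absolute change of the miR-199 rows was small and that of Mir214 was not. The absolute log2 fold change of Mir199a-1, Mir199a-2 and Mir199b was larger than that of 26, 22 and 28 of the 418 rows. Mir214 exceeded 254 of the 418 rows. The median absolute log2 fold change was 0.36 over all rows tested and 0.29 over the 50 most abundant rows. The biological coefficient of variation was 0.105 to 0.107 for the miR-199 rows and 0.122 for Mir214. Its median was 0.134 over all rows and 0.105 over the 50 most abundant rows. The miR-199 rows lay near the latter median and Mir214 lay above it. The fit draws the value of each row towards that of rows of like abundance, so part of this closeness is built in.

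**Figure D3:**
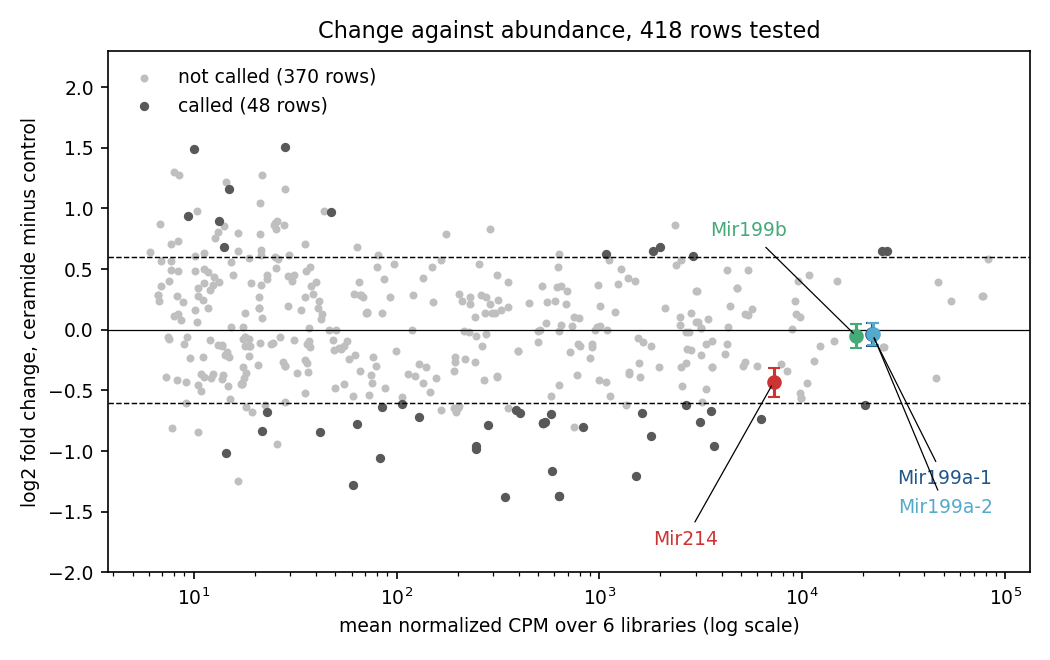
Log2 fold change (ceramide minus control) against mean normalized CPM (log axis) for the 418 rows tested, with the 48 called rows in dark grey and dashed lines at a log2 fold change of 0.6 in either direction. The 4 rows are coloured, with bars of 1 standard error. The miR-199 rows lie near 0 at high abundance, and Mir214 lies at -0.43, inside the dashed lines.

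Libraries with the same replicate number deviated together, so the change was also taken within numbers. For Mir199a-1 the log2 ratio of Cer to control was 0.03, -0.06 and -0.09 in replicates 1, 2 and 3. Mir199a-2 gave 0.04, -0.06 and -0.09, and Mir199b gave 0.00, -0.08 and -0.09. The miR-199 rows thus stayed within 0.1 of 0 in each number. Mir214 was lower in 3 of 3 numbers, by log2 ratios of -0.73, -0.35 and -0.19, and its size differed more between the numbers than that of any miR-199 row. With the replicate number as a block, none of the 4 rows was called, against 87 of the 418 rows (20.8%). The block lowered the standard error of Mir199a-1 from 0.10 to 0.04 and that of Mir214 only from 0.12 to 0.11.

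The sign of the small miR-199 changes depended on the scaling, and that of Mir214 did not. With DESeq2's size factors Mir199a-1, Mir199a-2 and Mir199b stood at 0.03, 0.04 and 0.02, and with library size alone at -0.12, -0.11 and -0.13. Mir214 was -0.36 and -0.51 under the same scalings. Mir214 was -0.30 without control replicate 1, the library with its highest level. With the lane number added to the model, the comparison rests on the 2 libraries named lane 1, which may not share a run. Mir214 was then at -0.73 (standard error 0.11), past the fold of 0.6.

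**Figure D4:**
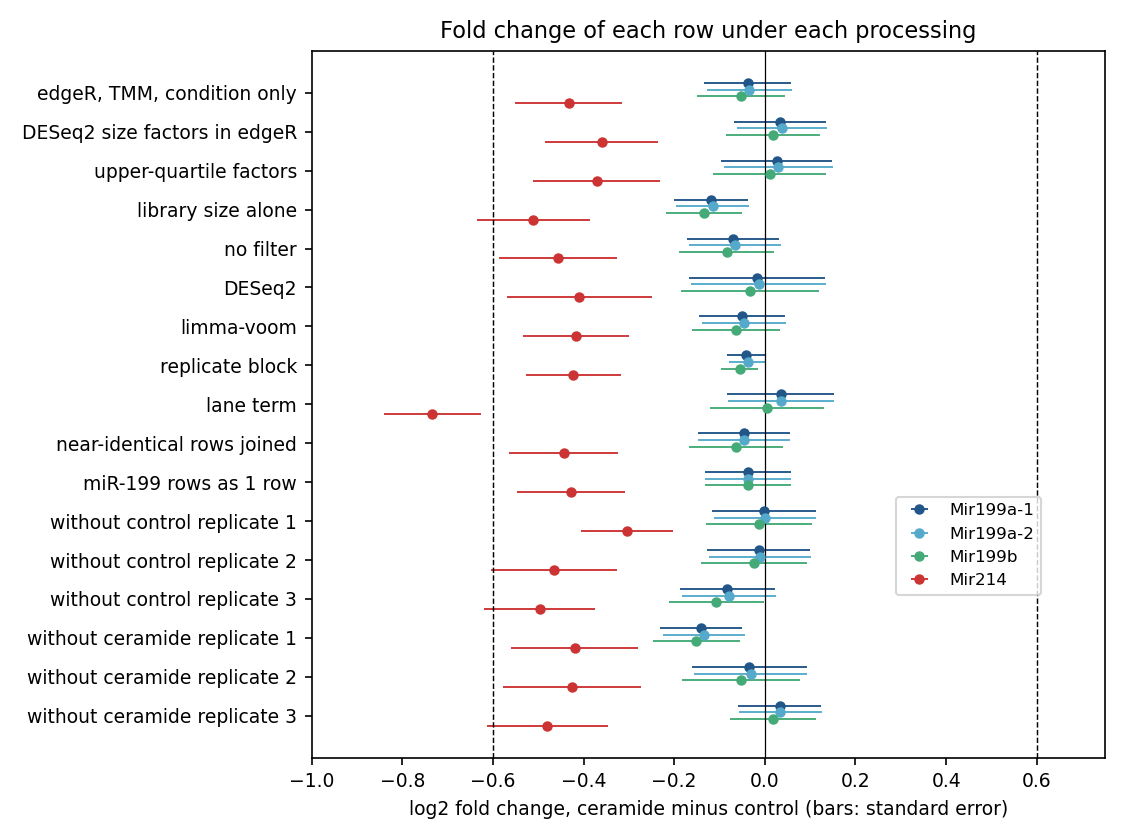
Log2 fold change (ceramide minus control, x axis) of each of the 4 rows under the fit used here and 16 alternatives (rows of the plot), with bars of 1 standard error and dashed lines at 0.6 in either direction. The miR-199 rows lie between -0.15 and 0.04 throughout, and Mir214 lies between -0.73 and -0.30.

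The rows were then set beside lists of miRNAs linked to mesenchyme, to neurons, and to blood and serum. Of 10 miRNAs linked to mesenchyme, fibroblasts and smooth muscle, 9 were tested. None was called, against 48 of the 418 rows (11.5%). At an adjusted p of at most 0.05 alone 1 was lower, Mir21a, against 53 of all 418 rows (12.7%). The median log2 fold change of the list was -0.07, against -0.01 over all rows. Mir21a, an abundant miRNA of proliferating and fibrotic cells, was at 51621 ± 4430 CPM in control and 39215 ± 3376 CPM in Cer (SD, n = 3 each). The fitted change was -0.40 on the log2 scale (adjusted p = 0.032, edgeR). The smooth muscle miRNAs Mir143 and Mir145a, from one transcript, had log2 fold changes of -0.28 (adjusted p = 0.10, edgeR) and -0.38 (adjusted p = 0.12, edgeR). Mir29a, which represses collagens, was at 8849 ± 851 and 8894 ± 1562 CPM (SD, n = 3 each), a mean within 1 SD of that of Mir214 in control. Cer libraries all lay above the control libraries for Mir152 (log2 fold change 0.14; adjusted p = 0.23, edgeR), as for 59 of the 418 rows (14.1%). They all lay below for Mir21a and for Mir31 (log2 fold change -0.38; adjusted p = 0.12, edgeR), as for 105 of the 418 rows (25.1%). The summed level of the 9 rows was 71777 to 82159 CPM in control and 58596 to 65295 CPM in Cer libraries. Without Mir21a, 65.5% of this sum, the ranges overlapped, at 23038 to 26247 CPM in control and 20673 to 26535 CPM in Cer.

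Of 13 listed neuronal miRNAs, 12 were tested, and 3 were called lower and none higher, against 35 of the 418 rows called lower (8.37%). Their median log2 fold change was -0.44, set by the miR-124 rows (-0.43 to -0.45). The called rows were Mir128-2, Mir138-1 and Mir153, at -0.78 (adjusted p = 0.0026), -0.76 (adjusted p = 0.0053) and -0.84 (adjusted p = 0.019) from the same edgeR fit. Mir138-2, the most abundant row of the list, which shares an arm with Mir138-1, was at -0.21 with overlapping groups (adjusted p = 0.26, edgeR). Mir128-1 was at -0.55 (adjusted p = 0.0053, edgeR), short of the fold threshold. In the same fit Mir132 was at -0.01, the miR-9 rows were at 0.14, and Mir137 was at 0.24 (adjusted p = 0.091, edgeR). Each Cer library was below the control libraries for 7 of the 12 rows and above them for 1, Mir137. Over all 418 rows this held for 105 (25.1%) and 59 (14.1%). The 7 lower rows include Mir124a-1, Mir124a-2 and Mir124a-3, with total counts of 160, 159 and 159. They also include Mir128-1 and Mir128-2, which share a mature arm. These rows are not read as separate measurements, so the 7 of 12 is a description only. The miR-124 rows, of a miRNA enriched in mature neurons, averaged 17.2 to 17.3 CPM over the 6 libraries. Mir199a-1, which may count shared reads more than once, averaged 22076 CPM. These are levels in vesicles, and the state of the cells was not tested. The most abundant rows of the list averaged 3150 CPM (Mir138-2), 3123 CPM (Mir138-1) and 605 CPM (Mir137). The list left out miR-218, a miRNA also known from neurons. Mir218-2 averaged 10804 CPM (log2 fold change 0.46) and Mir218-1 averaged 3591 CPM (log2 fold change -0.09). The miR-9 rows, of neural progenitors, averaged 70.8 and 71.2 CPM. The summed level of the 12 tested rows was 8910 to 10102 CPM in control and 6791 to 7360 CPM in Cer libraries. The Mir138 rows made up 76.8% of this sum. Without the Mir138 rows it was 1995 to 2090 CPM in control and 1715 to 1815 CPM in Cer. Both sums are of this list alone and leave out miR-218. Whether a shift in the makeup of the vesicles had a part in the lower Mir214 was not tested.

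Of 8 miRNAs of blood and serum, 6 were tested, with a median log2 fold change of 0.20. None was called, against 48 of the 418 rows (11.5%). Mir486, of red cells, was the most abundant, at 268 ± 25.5 CPM in control and 221 ± 39.9 CPM in Cer (SD, n = 3 each; log2 fold change -0.26). Mir122, of liver, was at 56.5 ± 5.04 and 74.4 ± 0.896 CPM (SD, n = 3 each), a fitted difference of 0.39 in log2 (adjusted p = 0.064, edgeR). Mir223, of myeloid cells, had a log2 fold change of 0.58 (adjusted p = 0.055, edgeR). For both, each Cer library was above the control libraries, as for 59 of the 418 rows (14.1%). The reverse held for Mir150 (log2 fold change -0.37; adjusted p = 0.28, edgeR), as for 105 of the 418 rows (25.1%). Mir451a, of red cells, averaged 37.2 CPM over the 6 libraries. The summed level was 389 to 424 CPM in control and 363 to 413 CPM in Cer libraries, overlapping ranges, and without Mir486 it was 124 to 151 CPM in control and 157 to 185 CPM in Cer. The part of serum in the miR-199 and miR-214 counts was not tested.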

How the data were processed

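Exosomal small RNA of 6 libraries (3 control, 3 Cer) was analysed from the deposited raw count of each miRNA gene, 1 count for both arms of a hairpin. The authors trimmed adapters with Cutadapt 1.15, aligned reads to GRCm38 with STAR 2.5.3a and counted them on GENCODE miRNA genes with GeneCounts. Release, strand, multiply aligned reads and molecular identifiers were not given in the sources used here. Of 1973 rows, 1894 matched GENCODE M21.

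Counts were normalized with TMM and fitted with edgeR 4.0.16 (R 4.3.3) on the 418 rows kept by filterByExpr, with condition as the only term. The thresholds are those of the study. DESeq2 1.42.0, limma-voom (limma 3.58.1), other scalings, no filter, replicate block, lane, joined rows and leaving out each library were alternatives. The fit was tested on simulated data. Totals of 800810 to 2760015 counts per library set the precision, and the members had 4508 counts or more in each. No 2 libraries agreed within counting noise.

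Deviations of same-numbered libraries from their group means correlated at 0.59 (replicates 1), 0.43 (replicates 2) and 0.75 (replicates 3). Between libraries of different numbers the correlations lay between -0.59 and 0.10. Deviations within a group sum to 0, so these values are tied to each other. On this evidence from the data, and not from the labels, the numbers were taken to pair libraries. The pairing was thus chosen on the rows that were then fitted, so more calls under the block are no check on it. Of the fits, only the one with the replicate block used this pairing. The main fit left it out, and so did each adjusted p printed for a single row. The choice changed the calls, with 87 rows called under the block and 48 in the main fit. With no fold threshold, 189 rows passed under the block and 83 in the main fit. Adjusted p of single rows under the block are not given.

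The rows and lists were chosen with earlier results of these data known. Named rows are the 4 members, rows sharing a seed, rows in the dynamin genes, neighbours in level, the 3 most correlated rows of each member, and, from the mesenchymal, neuronal and blood lists, those with the most counts. Beyond that rule, the called neuronal rows, Mir132, Mir137, Mir145a, Mir152, the miR-124 and miR-9 rows, Mir451a, Mir122 and Mir223 were named after their values were seen.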

Additional observations from a re-analysis of the deposited data

How the results depend on the processing

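Of the 16 alternatives, 15 left Mir214 within the spread between libraries of its value, the exception being the lane as a further term (-0.73, with 1 of the 4 rows called). The 3 miR-199 rows stayed within their spread in all 16. With each library left out in turn, the log2 fold change lay between -0.14 and 0.03 for Mir199a-1, -0.13 and 0.03 for Mir199a-2, -0.15 and 0.02 for Mir199b, and -0.50 and -0.30 for Mir214, and 0 of the 4 rows were called. The ratio of Mir214 to Mir199a-2, Cer minus control, lay between -0.50 and -0.28 on the log2 scale with each library left out in turn. The replicate block cannot move a mean difference over complete pairs. A pseudocount of 0.5 is very small beside counts of 4508 or more. That neither setting moved the 3 ratios beyond their spread is therefore no check on them. Counting the miR-199 rows once lowered the share of counts to 3.17% in control and 2.71% in Cer.

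Over all rows, 48 were called (13 higher, 35 lower), 87 with the replicate block (38 higher, 49 lower) and 29 with the lane term. Leaving out 1 library gave 28 to 55, with 28 (3 higher, 25 lower) without control replicate 1. The split was 21 higher and 26 lower with DESeq2's size factors in edgeR, 23 and 28 with upper-quartile factors, 4 and 42 with library size alone, and 5 and 30 with no filter. No scaling moved the median row by over 0.1. The causes of these moves were not tested.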

Other observations

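Across the tested rows, 4 pairs of hairpins shared all their RefSeq mature arms, and the largest difference within such a pair was 1.67% in any library, with Mir199a-1 and Mir199a-2 at 1.12%. In 34 pairs that shared some arms, the largest difference in any library had a median of 16.7% and reached 96.3%. Mir199a-1 and Mir199b, at 17.2%, were close to that median.

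Hairpins on one strand within 10000 bases of each other, with no shared stretch of 18 bases, formed 178 pairs of tested rows. The absolute difference of their log2 fold changes had a median of 0.31, and 77 pairs differed by more than Mir199a-2 and Mir214 (0.40). Among the 35 pairs with both rows at 1000 CPM or more, the median was 0.21 and 11 pairs differed by more. The pairs share rows and libraries, so these are descriptions with no test.

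Over the 6 libraries the log2 levels of Mir199a-1 correlated with those of Mir199a-2 at a Pearson r of 1.000 and with Mir199b at 0.993, rows that share a mature arm. Outside the group the row most like each miR-199 row was Mir669m-1, at r of 0.967 to 0.980 and a mean of only 18.8 CPM. Mir214 correlated with the miR-199 rows at 0.212 to 0.293. The rows most like Mir214 were Mir151 (0.976), Mir708 (0.958) and Mir425 (0.935). Each r rests on 6 points that share depth and scaling, and no p is given.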
